A study of Brassica juncea with 9 samples.

Results

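Arrays of 43603 probes were hybridised with Brassica juncea leaf RNA. Of these probes, 59 formed a set expressed in every plant that stood much higher wherever bicarbonate had been added to the salt solution. They were selected on measured values. Each had to be well above background on all 9 arrays, as 14476 probes were. In the authors' log2 value table, its lowest alkaline salt plant had to exceed the highest of the 6 salt and control plants by at least 1.5, and its salt and control means had to lie within 0.5 of each other. The 59 probes stood for 58 transcript identifiers and made up 0.408% of the probes expressed throughout. The same rule turned upside down, for probes lower wherever bicarbonate had been added to the salt solution, found 13. Nothing tested on these arrays is independent of that choice, so the values below describe the probes and are no test of them.

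Indian mustard of genotype NDR8501 was raised in hydroponic nutrient solution and sampled at an age of 5 weeks, after 4 weeks of treatment. The alkaline salt group received 50 mM NaCl in solution buffered with 2.5 mM bicarbonate. The salt group received 50 mM NaCl alone, and the control group grew in a slightly acidic solution without either addition. Each group had 3 biological replicates, with 1 middle leaf of 1 plant on each array. Between 16799 and 22063 probes were well above background on an array, and each of 3 slides carried 1 plant of every group. No gene spot was saturated.

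Bicarbonate holds the solution around the root at an alkaline pH. At such a pH iron, phosphate, zinc and manganese are poorly soluble, and mustards and their relatives take up iron by acidifying the root surface and reducing ferric iron there. Sodium chloride by itself acts through osmotic strain and the build-up of sodium and chloride in leaves. A comparison at equal NaCl therefore sets the added bicarbonate and its pH against salt alone. No group received bicarbonate without NaCl, so an effect of bicarbonate cannot be told apart from one that needs both. The files identify the probes by accessions of expressed sequence tags or by assembled contigs and pair none with a gene. No function is therefore given to any of them here, and their match to Brassica juncea sequence was not checked. Brassica juncea carries the genomes of a pair of ancestral species, and signals from near-identical copies of a gene on the same probe cannot be told apart.

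All 59 probes lay higher in each alkaline salt plant than in any other plant, as the rule demands; of the size of the difference the rule set only a lower bound. In the value table, the mean of the alkaline salt plants exceeded the salt mean by 3.43-fold to 32.0-fold, with a median of 5.95-fold. Against the control mean the range was 3.81-fold to 33.6-fold and the median 6.51-fold. At least an 8-fold difference was held by 19 probes against salt and by 20 against control. For 16-fold the counts were 8 and 6. Over all probes expressed throughout, the median log2 difference was -0.01 in both comparisons. The separation itself, from the lowest alkaline salt plant to the highest other plant, had a median of 1.91 on the log2 scale and a maximum of 4.46. It lay between 1.5 and 2 for 32 probes and above 3 for 3. In RNA of whole leaves, a change in the number of cells of a type and a change in RNA per cell cannot be told apart.

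**Figure D1:**
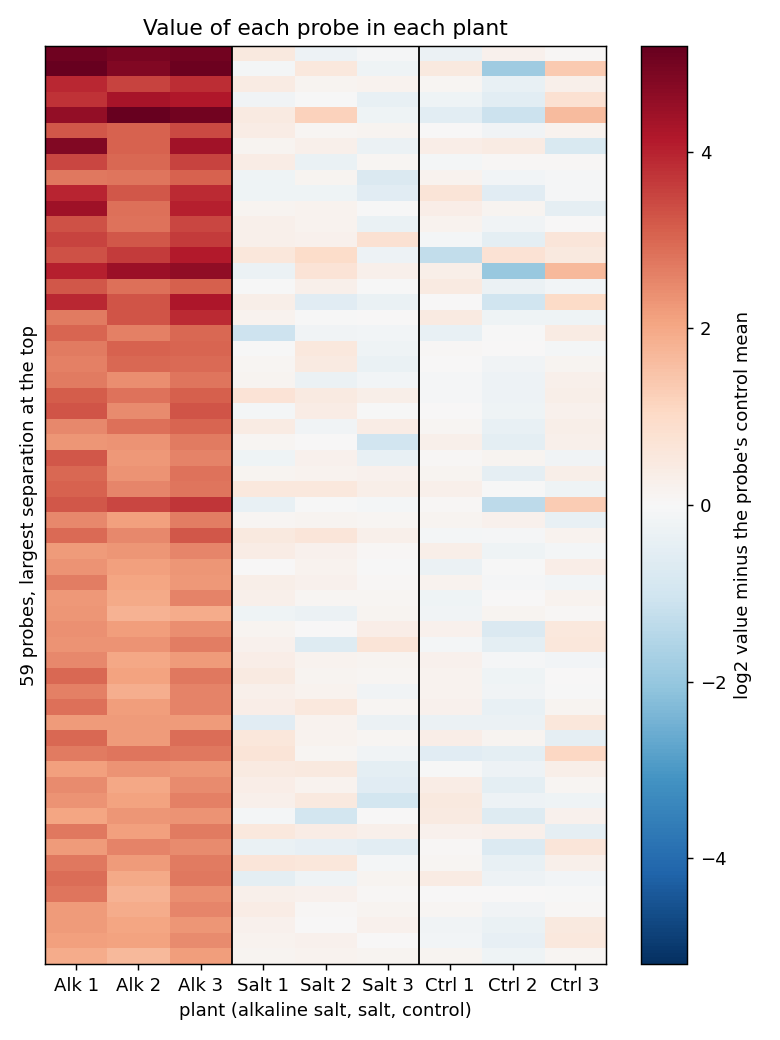
Log2 value of each of the 59 probes (rows, ordered by separation) in each of the 9 plants (columns: alkaline salt, salt, control), shown as the difference from the probe's own control mean. The 3 alkaline salt columns are high throughout, while the salt columns stay near the control level and a few rows vary widely between control plants.

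The probe with the largest separation was A_46_P048227, of transcript DY018165. Its log2 values were 15.92, 15.81 and 15.86 in alkaline salt plants, against 11.35, 10.58 and 10.82 in salt plants and 10.56, 11.10 and 10.92 in control plants. The alkaline salt plants sat within 0.11 of each other and the other plants formed a single band far below them. The means were 15.86 ± 0.05, 10.92 ± 0.40 and 10.86 ± 0.28 (SD, n = 3 each), and alkaline salt was 30.7-fold above salt and 32.0-fold above control.

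A_46_P368355, of transcript EV131398, came next. Its log2 values were 16.54, 16.10 and 16.39 in alkaline salt plants, 11.18, 11.81 and 11.05 in salt plants, and 11.77, 9.41 and 12.64 in control plants. Alkaline salt plants spread over 0.44 and salt plants over 0.76 on the log2 scale, while the controls spread over 3.23. Control replicate 2 was lowest of all plants and control replicate 3 highest of the salt and control plants. The fitted log2 difference from control of 5.00 (SE 0.71) became 4.07 without control replicate 2 and 5.68 without control replicate 3. Against salt the fitted difference was 4.97 (SE 0.71). The fit shares the spread between plants over all groups, so this SE includes the wide spread of the controls.

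At the edge of the set, the member just inside the threshold was A_46_P343605, of transcript CD816517, with a separation of 1.51. Its log2 values were 14.29, 14.05 and 14.52 in alkaline salt plants, 12.51, 12.54 and 12.48 in salt plants, and 12.49, 12.12 and 12.46 in control plants. Just outside, A_46_P207874 of transcript CD836564 had a separation of 1.49. It read 13.34, 12.44 and 12.83 in alkaline salt plants, 10.68, 10.75 and 10.61 in salt plants, and 10.75, 10.96 and 10.51 in control plants. The probe left out had the larger mean difference, at 2.19 from salt against 1.78 for the one taken in, and a wider range between its alkaline salt plants, at 0.90 against 0.47.

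Membership thus turned on single plants. Alkaline salt replicate 2 was the lowest of its group for 41 of the 59 probes, or 69.5%, against 32.6% of all probes expressed throughout. Without that plant the rule would take in 118 probes. The highest of the 6 salt and control plants was salt replicate 1 for 19 probes and control replicate 3 for 16. The condition on salt and control means removed a further 17 probes that met the separation. Of these, 10 had the salt mean above and 7 below the control mean, by 0.52 to 1.81 on the log2 scale. Alkaline salt replicate 2 was also the lowest of its group for most of the 17, so that order is not particular to the 59.

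**Figure D2:**
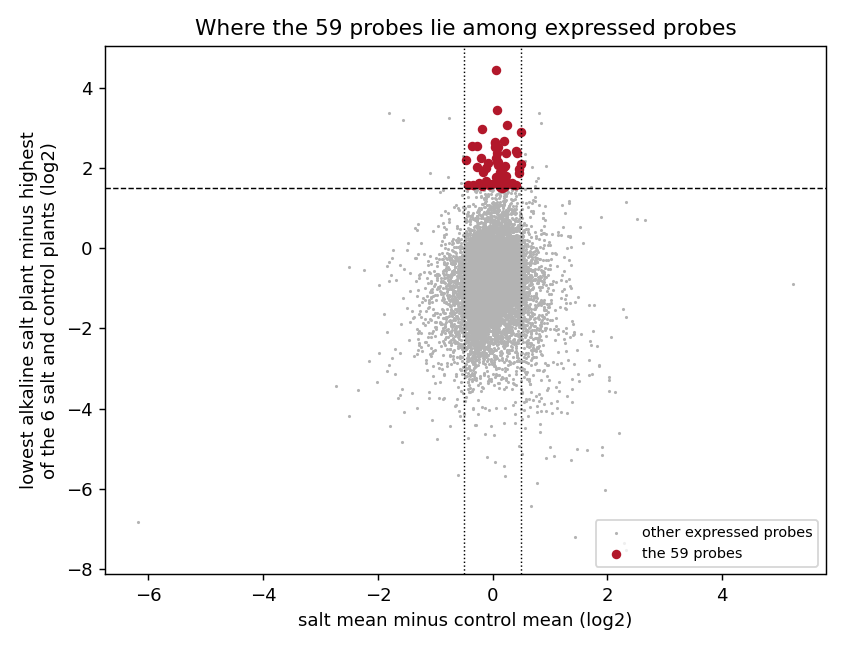
Each point is a probe well above background on all 9 arrays, placed by its salt mean minus control mean (horizontal, log2) and by its lowest alkaline salt plant minus the highest of the 6 salt and control plants (vertical, log2). The 59 probes fill the box above the dashed line at 1.5 and between the dotted lines at 0.5 on either side of 0, and thin out upward to 4.46.

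The next question was how far NaCl alone moved the same probes. The rule held the salt and control means within 0.5, and within that limit 42 probes differed by less than 0.25. The median log2 difference of salt minus control was 0.10, from -0.47 to 0.49, against -0.01 over all probes expressed throughout. The salt mean was the higher one for 43 probes and the lower one for 16; of all expressed probes, 48.2% had the higher mean in salt. This lean was not the same on every slide. Each slide held 1 plant of every group, so a difference between slides cannot be told apart from one between plants. Salt minus control had a median of 0.09 within slide 1, 0.38 within slide 2 and -0.12 within slide 3, and salt exceeded control for 35, 50 and 22 probes on these slides.

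Fitted over all 17798 tested probes, with 3 plants a group, the set had no call for NaCl alone. In limma, 0 of the 59 probes were called in salt against control at an adjusted p under 0.05, where 0.0337% of tested probes were called. At an unadjusted p under 0.05 the count was also 0, where 5.89% of tested probes passed. The 95% interval of this difference lay within 1 of 0 on the log2 scale for 42 of the 59 and reached beyond 1 for 17. The rule kept the salt and control means close, so neither the counts nor the intervals show how NaCl acts on these transcripts. All 59 were called higher in alkaline salt than in salt, where 7.98% of tested probes were, and all 59 higher in alkaline salt than in control, where 8.01% were. The rule used both of these contrasts too, which share the alkaline salt plants, so nothing is read from these counts. The fitted differences ran from 1.77 to 4.97 against salt and from 1.86 to 5.00 against control, with medians of 2.53 and 2.66. The median half-width of a 95% interval was 0.65, close to the 0.61 of all tested probes.

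**Figure D3:**
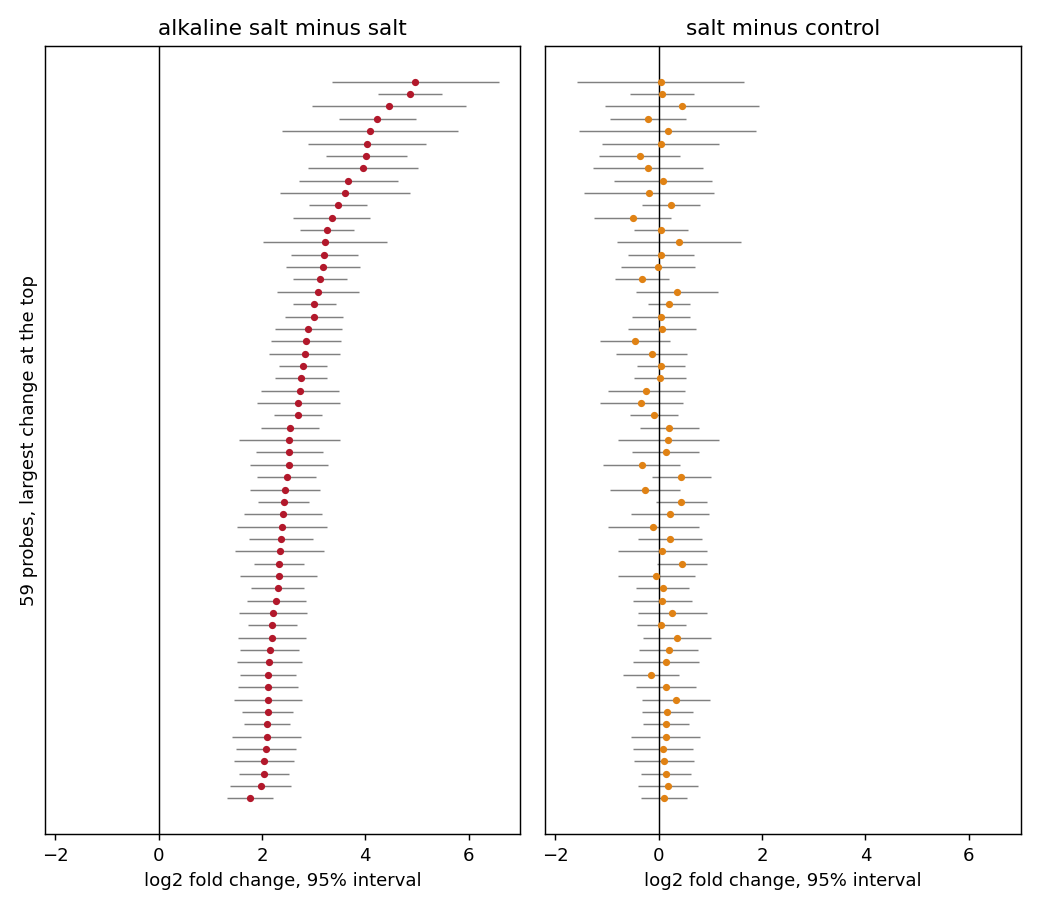
Fitted log2 fold changes of the 59 probes with 95% intervals from limma, for alkaline salt minus salt (left) and salt minus control (right), 1 row per probe in the same order in both panels. The left points run from 1.77 to 4.97, and the right points from -0.50 to 0.45.

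Within slides, the rule already put every difference between alkaline salt and either other group at 1.5 or more, so the direction and this lower bound are no finding. The median log2 difference of alkaline salt minus salt was 2.53 within slide 1, 2.31 within slide 2 and 2.92 within slide 3, and the smallest difference of any probe was 1.67, 1.51 and 1.77 on these slides. Alkaline salt minus control had medians of 2.67, 2.71 and 2.76. Slide 2 held both alkaline salt replicate 2 and control replicate 2, each the lowest of its group for most of the probes. It also held salt replicate 2, which was the lowest of its group for 15 probes and the highest for 23.

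Between plants of the same treatment the probes moved in part together. In alkaline salt plants the median deviation from the group mean was 0.07 in replicate 1, -0.24 in replicate 2 and 0.16 in replicate 3. In salt plants it was 0.10, 0.05 and -0.11, and in control plants 0.09, -0.24 and 0.17. Over all probes expressed throughout, the same medians lay between -0.04 and 0.05. Alkaline salt replicate 3 was the lowest of its group for 1 of the 59 probes, against 33.4% of all expressed probes. Control replicate 2 was the lowest control for 38 probes, or 64.4%, against 40.0% of all expressed probes, and salt replicate 3 the lowest salt plant for 37, or 62.7%, against 41.2%.

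**Figure D4:**
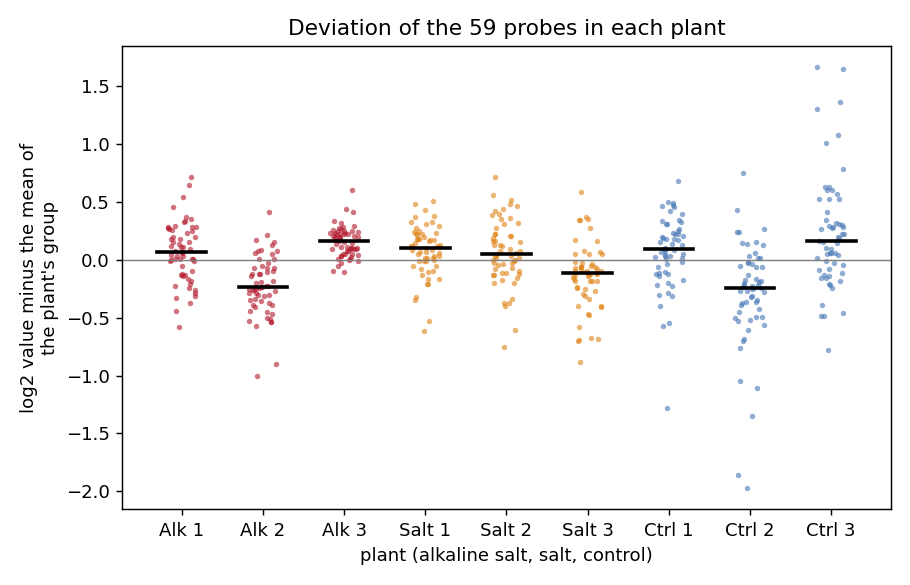
Deviation of each of the 59 probes from the mean of its treatment group (vertical, log2) in each plant, with the median as a black bar. Alkaline salt replicate 2 and control replicate 2 have medians of -0.24, and the widest scatter is in control replicates 2 and 3.

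The spread between replicate plants was largest in the controls. Over the set, the SD between replicates had a median of 0.26 in alkaline salt, 0.24 in salt and 0.35 in control plants, where all expressed probes had 0.22, 0.23 and 0.29. A range over 1 on the log2 scale was seen for 3 probes in alkaline salt, 7 in salt and 15 in control plants. That is 5.08%, 11.9% and 25.4% of the set, against 11.4%, 12.7% and 17.9% of all expressed probes.

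A subset of 6 probes had controls that differed by more than 2 on the log2 scale, or 10.2% of the set against 2.92% of all expressed probes. Such controls are not particular to the set. They were also seen among the 17 probes that met the separation but not the limit on salt and control means. For 5 of the 6 probes, control replicate 2 was the lowest and control replicate 3 the highest control. That order was held by 29.8% of the 423 expressed probes with such a range. The widest was A_46_P135229, of transcript TA21169_3708, with 14.71, 15.12 and 15.28 in alkaline salt plants, 10.37, 11.38 and 10.95 in salt plants, and 10.98, 8.70 and 12.34 in control plants. The exception in order was A_46_P285648, of transcript EE483015, with 14.84, 15.14 and 15.65 in alkaline salt plants, 12.12, 12.46 and 11.26 in salt plants, and 10.24, 12.27 and 12.04 in control plants. In the same 6 probes the ranges were 0.44 to 0.94 in alkaline salt plants and 0.35 to 1.42 in salt plants. A salt range over 1 was held by A_46_P135229, A_46_P285648 and the probe at 1.42, where 11.9% of the set had such a range. Narrower ranges outside the controls follow in part from picking these 6 probes by their control range. Their mean differences between alkaline salt and control ran from 3.47 to 5.07, sizes that follow in part from the rule, since even the highest control had to lie 1.5 below the alkaline salt plants.

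Within alkaline salt, the widest range was 1.72, for A_46_P290643 of transcript TA34991_3708. It read 15.10, 13.38 and 14.67 in alkaline salt plants, 10.45, 10.55 and 9.99 in salt plants, and 10.64, 10.73 and 9.52 in control plants. Replicate 2 was again the low plant, and still stood 2.64 above the highest of the others.

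Of the 58 transcript identifiers, 5 had a second probe on the array. That the 2 probes of an identifier read the same RNA rests on the shared identifier alone. For DY021659 both probes met the rule. A_46_P266338 read 15.68, 15.17 and 15.38 in alkaline salt plants, 13.51, 13.37 and 13.30 in salt plants, and 13.38, 13.12 and 13.01 in control plants. A_46_P048841 read 14.94, 14.32 and 14.55 in alkaline salt plants, 12.58, 12.49 and 12.34 in salt plants, and 12.48, 12.22 and 12.15 in control plants. Both followed the same order of plants in every group, and their fitted differences from salt were 1.97 (SE 0.26) and 2.12 (SE 0.26).

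For the other 4 transcripts the second probe did not meet the rule. In all 4, its lowest alkaline salt plant still lay above all 6 other plants. Transcript TA32840_3708 had a fitted alkaline salt minus control difference of 2.45 (SE 0.29) for A_46_P172794 and 2.21 (SE 0.30) for A_46_P231309, which missed the threshold with a separation of 1.47. Transcript EV069639 had 2.58 (SE 0.27) for A_46_P039201 and 2.43 (SE 0.31) for A_46_P237109, with a separation of 1.37 for the second. For TA32176_3708 the differences were 2.49 (SE 0.33) for A_46_P170394 and 2.38 (SE 0.34) for A_46_P310330, with 1.28. Between the 2 probes of a pair, these values lay 0.24, 0.15 and 0.11 apart in the same order. The fitted differences from salt lay 0.10, 0.27 and 0.05 apart. These second probes were measured on the same arrays, so they share each plant's deviation with the first.

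The remaining pair disagreed on detection outside alkaline salt. For TA21218_3708, A_46_P238474, the probe with the highest control mean of the set, read 17.74, 17.47 and 17.90 in alkaline salt plants, 14.49, 14.45 and 15.02 in salt plants, and 14.13, 13.73 and 14.88 in control plants, all well above background. A_46_P135399 read 9.24, 8.27 and 9.03 in alkaline salt plants, 7.54, 6.08 and 7.42 in salt plants, and 7.32, 5.88 and 7.44 in control plants. It was well above background in the 3 alkaline salt plants and in none of the others, so no fold change is given for it. The second probe alone would have placed this identifier among those detected under alkaline salt only.

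**Figure D5:**
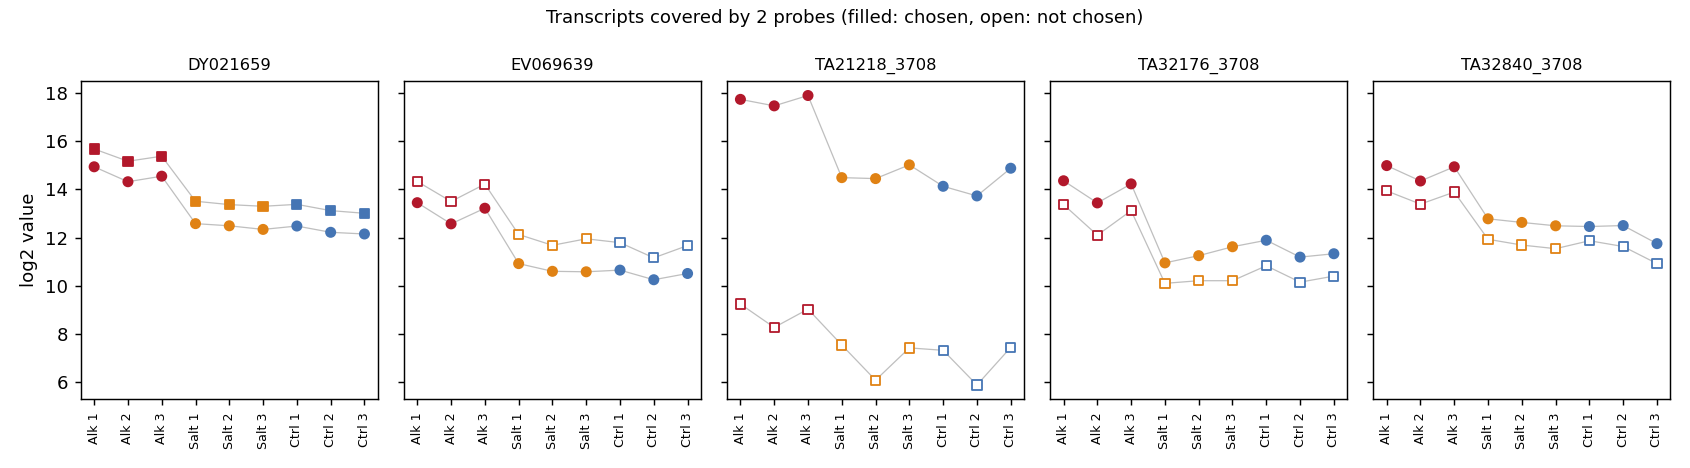
Log2 values in the 9 plants of the 5 transcripts that have 2 probes on the array, with circles and squares for the 2 probes, filled where the probe is one of the 59 and open where it is not. In all 5 panels both probes are highest in the 3 alkaline salt plants, and in the TA21218_3708 panel the open probe lies near background in the other 6.

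A_46_P286843, of transcript EE484347, had the lowest control mean of the set, which does not rank it against other transcripts. It read 10.63, 10.46 and 10.70 in alkaline salt plants, 8.43, 8.28 and 8.60 in salt plants, and 8.50, 7.51 and 8.80 in control plants. Its salt and control plants overlapped, and its alkaline salt plants stood apart by 1.66.

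The kinds of identifier were close to those of expressed probes in general. Accessions of single sequence tags named 37 of the 59 probes, or 62.7%, against 62.3% of all probes expressed throughout. Contigs of the TA type made up 20.3% against 23.9%, and contigs of the TC type 16.9% against 13.8%. On the array surface, equal bands of rows held between 10 and 20 of the 59 spots each, and there was 1 pair of neighbours. These counts were not set against those of all expressed probes.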

How the data were processed

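Single leaves from 9 plants were each hybridised to a one-colour Cy3 array. Spot intensity in the deposited scanner files is linear, and was background-subtracted and detrended within an array by Agilent Feature Extraction 10.1.1.1, per the file headers, whereas the submitters' processing notes give 10.5.1.1. Scan times in the headers precede the growing period in the labels. The log2 values of the deposited table come from the authors by a method they do not state. They lay within 0.0891 of quantile-normalised log2 processed intensity in every cell, so their scale, normalisation and lack of centring are inferred; column medians ran from 6.26 to 6.27.

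The selection rule and all values per plant used that table. Fits used log2 processed intensity minus the array's 75th percentile, control spots left out, 71 outlier spot values set to missing and repeated spots averaged. The 17798 probes tested had to exceed background clearly in every plant of 1 or more groups and were fitted with limma 3.58.1 in R 4.3.3 on all 9 arrays, no covariate, two-sided, and Benjamini-Hochberg adjustment over all tested probes. The fit was checked on simulated data. Figures were drawn with matplotlib 3.10.9.

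The probes, the rule and the lists were chosen with earlier results of these data known. Probes are named by identifier under a rule: the 2 with the largest separation, those nearest the threshold, those with the extreme control signals, and those sharing a transcript with another probe. The other 3 were named after their values were seen: A_46_P135229 and A_46_P285648, for their spread between control plants, and A_46_P290643, for its spread between alkaline salt plants. The files pair no probe with a gene name or a sequence, so 0 of 10 gene lists could be applied and the leaf label was not checked against markers. Slide numbers and replicate numbers coincide, with all 3 groups on each of the 3 slides. Deviations of same-numbered arrays from their group means correlated at -0.145 to 0.29 over probes, which does not pair them. Alternatives covered the rule's thresholds, normalisation, background correction, the filter on dim probes, the moderation, the replicate block and leaving out each array. The number of arrays limits the precision.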

Additional observations from a re-analysis of the deposited data

How the results depend on the processing

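Every probe of the set was called higher in alkaline salt than in salt and than in control in limma under all 19 alternatives of the fit, and 0 were called in salt against control under any of them. The rule had selected on these same contrasts and arrays, so the constant counts add no support. With the replicate block, which is also the slide, 59, 59 and 0 were called and the medians stayed at 2.53, 2.66 and 0.07. With normexp background correction, run with an offset of 50, the median difference from salt was 2.12, against 2.53. The median difference from control was then 2.31, against 2.66. The cause was not tested. Only the median of 2.12 moved by more than the spread between replicates, taken as the members' median pooled SD of 0.364. That SD describes single probes and not the precision of a median over the set. The median of salt minus control changed sign, to -0.04 without control replicate 2 and to -0.007 with array median scaling.

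The size of the set depended on the rule. It held 181 probes at a separation of at least 1, 27 at 2, and 220 with no filter on background, which also admits probes not detected on every array. Scaling to the 75th percentile gave 51 probes, 48 of them among the 59, quantile normalisation 59, the same probes, and normexp 40, with 37 of the 59. Leaving out single arrays gave 60 to 118 probes, with 118 when alkaline salt replicate 2 was omitted and 60 on omitting replicate 3 of that group. Omission of an alkaline salt plant cannot narrow the separation or change the salt and control means. All 59 therefore had to meet the rule in those settings, which show nothing about its stability. Without salt replicate 1 all 59 also met it. Of the 59, 49 did so without control replicate 2, 50 without control replicate 3 and 51 without salt replicate 3. Omission of a salt or control plant cannot narrow the separation either. The probes lost there failed only the limit on the salt and control means. The slide as a random block was not run, as slide and replicate number are the same grouping. Gene lists were not run, as no probe carries a gene name. The rule leaves out probes that were not well above background on every array. Within the set, 3 plants a group limit what can be seen: the interval of a log2 difference was 0.65 wide on either side at the median.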
